A study of Homo sapiens with 3 samples.

Results

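Genomic imprinting is the expression of a gene from only the maternal or only the paternal copy, set by DNA methylation that is laid down in the germ line and kept through later cell divisions. Imprinted genes lie in clusters, in which a differentially methylated control region and often a long noncoding RNA act on several neighbours, and many of their products promote or restrain fetal growth. In the liver, H19 and IGF2 are known for high expression before birth, a fall after birth and renewed or unbalanced expression in liver tumors. A list of 36 imprinted genes or genes of imprinted regions was looked up by gene name on the main chromosomes of the deposited gene tables. A row was found for 35 of them among 39320 gene rows, and NESP55, a neuroendocrine secretory protein of the GNAS locus, was found under no row of its own. The 35 genes fall into 17 clusters.

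The data were RNA-seq of poly(A) RNA in 3 libraries labelled as replicates 1 to 3 of HepG2, a line grown from a human liver cancer, all of wild-type genotype and with no treatment or time course. Each library was deposited as 1 table of genes with a coverage (mean read depth per base), an FPKM and a TPM, a level scaled for gene length and to the same total in every library. Read counts are not part of the tables and the depth is unknown. A relative measure of it, the largest coverage per unit of FPKM in each table, was 13.3, 12.8 and 11.5 for replicates 1, 2 and 3. No label says whether the 3 libraries came from separate cultures, so the SD given here measures the spread between libraries, which may be technical. The p-values given here test whether the mean log2 ratio of a pair of genes differs from 0 over the same libraries. A level of at least 1 TPM was reached by 13690 to 13765 rows per library. The liver label was checked against 8 hepatocyte genes (ALB, AFP, APOA1, APOB, SERPINA1, TTR, FGB and TF), and 0 of them reached 1 TPM in every library. FGB, ALB, SERPINA1, APOB and APOA1 were listed at 0 throughout, and the summed level of the 8 genes was between 0.0571 and 0.244 TPM. The liver label is therefore not borne out by these markers, and the libraries are called by their label only. Of the markers of other cell types, 1 of 6 stromal genes (COL1A1), 1 of 4 endothelial genes (VWF) and 0 of 5 blood genes reached 1 TPM in all 3 libraries, with summed levels of 6.41 to 7.50, 1.45 to 1.85 and 1.21 to 1.48 TPM. In RNA from a whole culture, fewer cells that express a gene and less RNA per cell cannot be told apart.

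A first set of sequences is shown for the microRNAs that lie in H19 and MEST, whose own mature levels these libraries do not measure. H19 and MEST each host a microRNA, a short RNA that pairs with messenger RNAs through its seed (bases 2 to 8, in capitals). The mature sequences are those of RefSeq for GRCh38.p14. Those of miR-675 lie in H19 at chr11:1996800-1996822 (5p) and chr11:1996768-1996787 (3p) on the minus strand, and those of miR-335 lie within MEST at chr7:130496126-130496148 (5p) and chr7:130496162-130496183 (3p) on the plus strand.
miR-675-5p: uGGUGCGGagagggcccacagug
miR-675-3p: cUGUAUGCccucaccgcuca
miR-335-5p: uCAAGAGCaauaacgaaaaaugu
miR-335-3p: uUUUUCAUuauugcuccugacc
The 4 seeds differ from one another.

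A second set of sequences shows the letters TGCCGC, or GCGGCA on the other strand, in capitals. TGCCGC is the core of the motif that ZFP57, a zinc finger protein that keeps methylation at imprinted control regions, binds when it is methylated. The stretches of 30 bases come from RefSeq promoter windows of GRCh38.p14 and are written along the strand of the gene, with every match inside a stretch in capitals.
HYMAI and PLAGL1, chr6:144008341-144008370, minus strand: catcctcttggcTGCCGCggGCGGCAaagc
SNRPN and SNURF, chr15:24954876-24954905, plus strand: gacccctgcactGCGGCAaacaagcacgcc
SNRPN and SNURF, chr15:24954951-24954980, plus strand: gtgtgcgaagccTGCCGCtgctgcagcgag
NAP1L5, chr4:88697889-88697918, minus strand: aagccagtcaagTGCCGCgaaagcaggagg
NDN, chr15:23687351-23687380, minus strand: gcgcaggcgcagTGCCGCgtcccgccgccg
MEG3, chr14:100825915-100825944, plus strand: gccaggggcactGCGGCAgaattttttcct
These windows belong both to genes that were expressed in the libraries (PLAGL1, SNRPN) and to genes listed at 0 in all of them (NDN, MEG3). A promoter window reaches from 250 bases before to 50 bases after an annotated start, and 22 of the 35 genes had at least 1 window in the reference table. For the other 13 genes, among them IGF2, CDKN1C, PHLDA2, PEG10 and PEG3, no window was used here. Of the 49 windows, 21 held the motif on either strand (42.9%), beside 5839 of 34943 windows of all genes (16.7%). By gene, 15 of 22 had a window with the motif, beside 5319 of 27305 genes (19.5%), with a median of 1.5 and 1 windows per gene. A gene with more windows has more places for a match, so these shares by gene are not like for like. Some windows overlap, such as those of MEG3, which hold the same match. HYMAI and PLAGL1 share a window with the motif, as do SNRPN and SNURF, so these counts are not of separate sites. The motif was present in a window of 9 of the 13 expressed genes (at least 1 TPM in every library) and of 6 of the other 9. The single H19 window held no match. The median number of CpG dinucleotides, the sites of DNA methylation, was 18 per window in these genes and 14 in all windows. The motif itself holds a CpG, and its share among windows of like CpG number was not tested. Methylation was not measured in these libraries, and a match describes letters of the reference only.

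Of the 35 imprinted genes, 19 (54.3%) had at least 1 TPM in all 3 libraries, and 33.8% of all 39320 rows did. A level of at least 10 TPM was reached by 13 imprinted genes, beside 20.7% of all rows. In 7 genes (20.0%), NDN, MAGEL2, MEG3, RTL1, PEG3, ZIM2 and TP73-AS1, the TPM was listed at 0 in every library, as it was in 40.7% of all rows. Another 7 genes were below 1 TPM in all 3 without being at 0 in all, and SNURF and NAP1L5 were above 1 TPM in some libraries and below it in others. The row set includes many short noncoding rows, so the protein-coding genes of RefSeq were also counted alone. Among these, 17 of 28 imprinted genes (60.7%) and 59.5% of 18743 rows had at least 1 TPM in all 3 libraries, while 5 imprinted genes (17.9%) and 20% of the rows were listed at 0 in all 3. SLC22A18, a protein-coding gene, had no match by name in the set of RefSeq genes as used here and is left out of the 28. It had 29.5 TPM or more in every library. At least 10 TPM was reached by 11 of the 28 and by 40.4% of the coding rows. These shares were near the background, so the imprinted genes as a group did not stand apart from other coding genes in how many were expressed. At least 1 gene with at least 1 TPM in all 3 libraries was present in 12 of the 17 clusters, and none in 5. Among these 5 is NAP1L5, a cluster of 1 gene, which had 13.5 and 12.5 TPM in replicates 1 and 3. In textbooks, 7 of the 35 genes are expressed from the maternal copy and 21 from the paternal copy in at least some tissues, and 5 of the first and 8 of the second had at least 1 TPM in all 3 libraries. The remaining 7 were given no single parental copy here, because their expressed copy depends on the tissue or isoform or is disputed, and 6 of them had at least 1 TPM. The tables hold no allele counts, so the copy that was expressed was not analysed here.

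**Figure D1:**
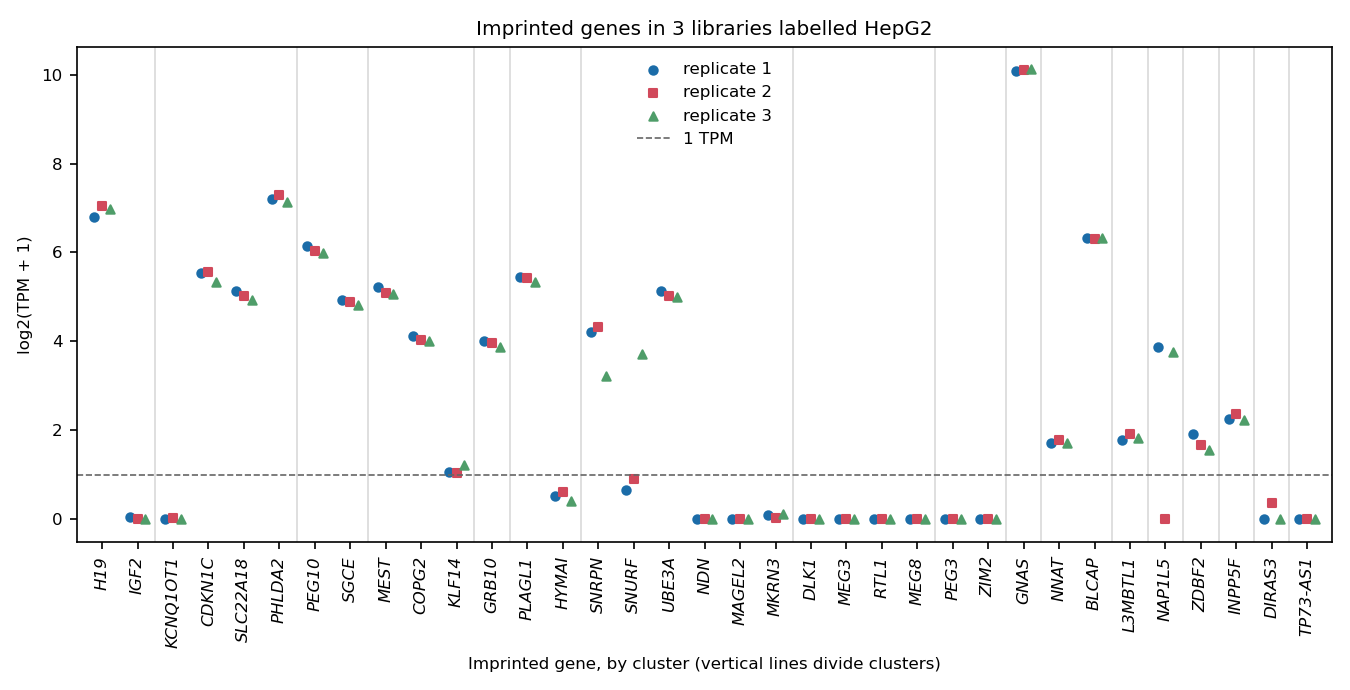
Level of the 35 imprinted genes, as log2(TPM + 1) on the vertical axis, in replicates 1, 2 and 3 (points), ordered by cluster, with vertical lines between clusters and a dashed line at 1 TPM. GNAS stands highest, 19 genes lie above the dashed line in all 3 libraries, and SNRPN, SNURF and NAP1L5 are the genes whose replicates lie far apart.

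The H19 and IGF2 cluster of chromosome 11 was expressed at the H19 end only. H19, a long noncoding RNA made from the maternal copy, is encoded on the minus strand from 1995176 to 2001466 in GRCh38. It had 110, 130 and 126 TPM in replicates 1, 2 and 3, or 122 ± 10.4 TPM (SD, n = 3), and a coverage of 626, 724 and 624. Its mean exceeded that of 91.4% of the 13753 rows with a mean of at least 1 TPM. IGF2, the fetal growth factor made from the paternal copy, lies 127645 bp from H19, from 2129112 to 2149603 on the minus strand. It was listed at 0.0384 TPM in replicate 1 and at 0 in replicates 2 and 3. H19 was thus above 110 TPM and IGF2 below 0.1 TPM in every library, and no ratio is given because IGF2 was listed at 0 in 2 of them. INS-IGF2, a read-through transcript that overlaps IGF2, and MIR483, a microRNA inside it, were also listed at 0 in all 3 libraries. IGF2-AS, on the other strand, was at 0 in replicates 1 and 2 and at 0.0234 TPM in replicate 3. CD81, a cell surface tetraspanin gene that starts 375 kb away, was the first row on the IGF2 side of H19 to reach 1 TPM. From the start of H19 to that of CD81, 11 gene rows including IGF2 began, and 0 of them reached 1 TPM in any library. The stretch was ended at CD81 after the values were seen, so this count follows from that choice. MIR483 and MIR4686 among the 11 rows are microRNA rows, a class that poly(A) libraries do not measure. The highest value among the 11 rows was 0.155 TPM, of LOC105376520 in replicate 3.

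Rows that overlap H19 had lower values than H19 itself. HOTS, on the opposite strand over 1119 bp of H19, had 7.83, 6.66 and 3.92 TPM in replicates 1, 2 and 3. MRPL23, a mitochondrial ribosomal protein gene on the opposite strand, had 35.3, 35.9 and 35.2 TPM. The strand setting of the quantification is not given in the sources used here, so reads of H19 and of these rows cannot be told apart where they overlap. MIR675, the row of the microRNA precursor whose mature sequences are given above, had 0.0140, 0.0134 and 0.0153 TPM. The libraries were made from poly(A) RNA, so this row does not measure the mature microRNA. Of the 5 genes listed for the IGF2 pathway, all had at least 1 TPM in all 3 libraries, as did 59.5% of all protein-coding rows. IGF1R, the receptor that transmits the IGF2 signal, had 46.3 ± 6.77 TPM, and INSR, the insulin receptor, had 8.50 ± 0.599 TPM (SD, n = 3). The RNA-binding proteins named after IGF2 mRNA had 52.5 ± 2.62 TPM for IGF2BP3, 16.2 ± 1.52 TPM for IGF2BP1 and 14.1, 14.3 and 13.6 TPM in replicates 1, 2 and 3 for IGF2BP2. IGF2R, which removes IGF2 from the cell surface, had 37.5 ± 2.53 TPM.

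In the neighbouring KCNQ1OT1 cluster, the 3 protein-coding genes among the 35 were expressed. KCNQ1OT1, the long noncoding RNA that silences the cluster on the paternal copy, was at 0, 0.0152 and 0 TPM in replicates 1, 2 and 3. It lies inside KCNQ1, a potassium channel gene on the opposite strand with 26.7, 24.7 and 24.2 TPM. PHLDA2, a pleckstrin homology protein that restrains placental growth, had 146, 156 and 140 TPM, or 147 ± 7.77 TPM (SD, n = 3), and ranked second among the imprinted genes by TPM and first by coverage (916, 955 and 771). CDKN1C, which encodes the cyclin-dependent kinase inhibitor p57, had 45.1, 46.3 and 39.2 TPM, or 43.5 ± 3.83 TPM. SLC22A18, an organic cation transporter gene, had 34.0, 31.4 and 29.5 TPM, or 31.6 ± 2.27 TPM. All 3 genes were thus at 29.5 TPM or more in every library. PHLDA2 exceeded SLC22A18 by 2.07, 2.27 and 2.21 on the log2(TPM + 1) scale within replicates 1, 2 and 3, a mean of 2.18 ± 0.10 (SD, n = 3), and by 3.10 when coverage was used. An exact sign-flip permutation test (two-sided) gave p = 0.25, the smallest value that 3 libraries allow, and 0.3 after Benjamini-Hochberg adjustment over 6 pairs. SLC22A18AS, on the strand opposite SLC22A18, had 4.22, 5.57 and 4.83 TPM. The next row beyond the cluster, NAP1L4, a nucleosome assembly gene, had 184 ± 8.03 TPM. CDKN1C, PHLDA2 and SLC22A18 also had a row each on an alternative reference sequence, and all 3 of these rows were listed at 0.

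**Figure D2:**
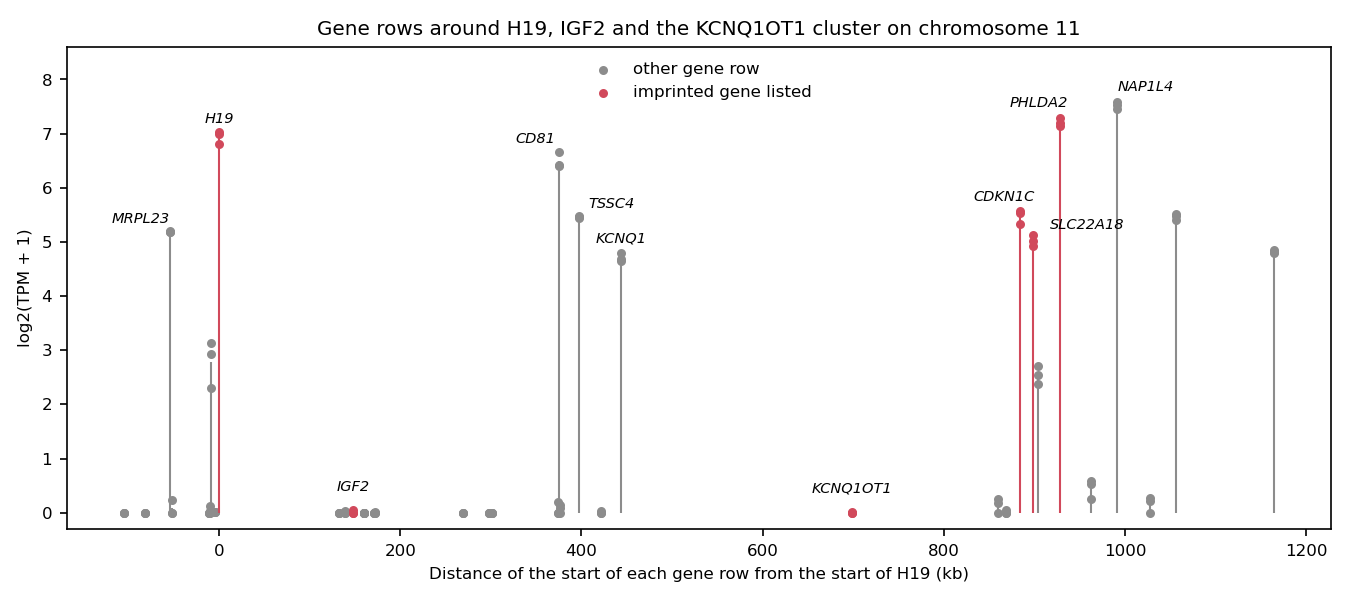
Level of the gene rows around H19, IGF2 and the KCNQ1OT1 cluster, as log2(TPM + 1) in each of 3 libraries (points, with a line to their mean), against the distance of the start of the row from the start of H19 in kb. The rows that start between H19 and CD81 at 375 kb lie near the baseline, MRPL23 and HOTS stand on the other side of H19, IGF2 and KCNQ1OT1 lie at the baseline, and CDKN1C, SLC22A18 and PHLDA2 stand at the far end.

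On chromosome 7, the genes of both imprinted clusters and GRB10 were expressed. PEG10, a gene derived from a retrotransposon and needed for the placenta, had 69.2, 64.4 and 62.6 TPM, or 65.4 ± 3.44 TPM (SD, n = 3). SGCE, the epsilon-sarcoglycan gene that is mutated in myoclonus dystonia, had 29.7, 28.4 and 27.4 TPM, or 28.5 ± 1.15 TPM. The pair starts 116 bp apart on opposite strands and shares a control region. PEG10 exceeded SGCE within each library by 1.19, 1.15 and 1.16 on the log2(TPM + 1) scale, a mean of 1.17 ± 0.02 (exact sign-flip permutation p = 0.25, adjusted 0.3). By coverage, in place of TPM, the same log2 ratio was 2.47. MEST, an alpha/beta hydrolase made from the paternal copy, had 36.1, 32.8 and 32.6 TPM, or 33.8 ± 1.99 TPM. COPG2, a coat protein gene that runs toward MEST and overlaps it over 60 bp, had 16.4, 15.2 and 15.1 TPM, or 15.5 ± 0.701 TPM. MEST exceeded COPG2 by 1.07 ± 0.02 on the log2(TPM + 1) scale (exact sign-flip permutation p = 0.25, adjusted 0.3), and by 0.02 when coverage was used. The MEST-to-COPG2 difference was thus present by TPM and nearly 0 by coverage. KLF14, a transcription factor gene of a single exon made from the maternal copy, had 1.08, 1.07 and 1.32 TPM, or 1.16 ± 0.142 TPM, the lowest of the 19 expressed genes. The row of MIR335, whose mature sequences are given above, was at 0, 0 and 0.127 TPM. GRB10, an adaptor that dampens insulin and IGF receptor signalling, had 15.2, 14.5 and 13.6 TPM, or 14.4 ± 0.775 TPM.

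On chromosome 6, PLAGL1, a zinc finger transcription factor that restrains cell growth, had 42.6, 42.0 and 39.3 TPM, or 41.3 ± 1.78 TPM (SD, n = 3). HYMAI, a noncoding RNA inside PLAGL1 on the same strand, had 0.441, 0.531 and 0.336 TPM. HYMAI was below 1 TPM in every library while PLAGL1 was above 39 TPM in each. Both share the promoter window that holds the 2 matches shown above, 1 in each orientation, and the other 4 PLAGL1 windows of the reference table held none.

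The SNRPN to UBE3A region of chromosome 15, whose loss causes Prader-Willi or Angelman syndrome depending on the parent, was expressed in its distal portion. MKRN3, a ring finger gene that delays puberty, was at 0.0657, 0.0212 and 0.0770 TPM, and MAGEL2 and NDN, a pair of MAGE family genes, were listed at 0 in all 3 libraries. UBE3A, the ubiquitin ligase of Angelman syndrome, had 34.0, 31.5 and 31.2 TPM, or 32.2 ± 1.55 TPM (SD, n = 3). SNHG14, a long noncoding RNA that hosts small nucleolar RNAs and runs over UBE3A on the other strand, had 8.71, 8.50 and 8.29 TPM. Of 83 small nucleolar RNA rows of this region, 10 had at least 1 TPM in every library and 49 were listed at 0 throughout. Of all rows, 33.8% had at least 1 TPM in every library and 40.7% were listed at 0 throughout. Poly(A) libraries do not measure this class of short RNA.

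SNRPN and SNURF were the pair whose replicates lay farthest apart within a locus. They share a promoter and their exons overlap, since the SNURF row (24954893 to 24978723) lies within the SNRPN row (24823608 to 24978723) on the same strand. SNRPN, which encodes the spliceosome protein SmN, had 17.6, 19.1 and 8.32 TPM, or 15.0 ± 5.82 TPM, and a coverage of 4.68, 4.99 and 2.08. SNURF, the upstream reading frame of the same transcripts, had 0.584, 0.862 and 12.0 TPM and a coverage of 0.967, 1.40 and 62.3. Replicate 3 was thus the lowest for SNRPN and the highest for SNURF. The summed TPM of both rows, a measure added after their values were seen, was 18.1, 19.9 and 20.4, or 19.5 ± 1.17 TPM (SD, n = 3), of which SNURF took 3.22%, 4.33% and 59.2%. The sum differed less between libraries than either row, and the sum of the coverages did not, with 5.65, 6.39 and 64.4. SNRPN exceeded SNURF by 3.55 and 3.43 on the log2(TPM + 1) scale in replicates 1 and 2 and was below it by 0.49 in replicate 3, a mean of 2.17 ± 2.30 (exact sign-flip permutation p = 0.5, adjusted 0.5). Without replicate 3 the mean was 3.49, and by coverage it turned to -0.50. The pair was tested only because of replicate 3, since the mean of SNURF without it was 0.723 TPM. SNRPN was below UBE3A in 3 of 3 libraries, by a mean log2 ratio of -1.13 ± 0.58 (exact sign-flip permutation p = 0.25, adjusted 0.3), and the ratio was -0.80 without replicate 3 and -4.69 by coverage. How reads were divided between the overlapping rows is not given in the sources used here.

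Members of the DLK1 to MEG3 cluster of chromosome 14 and of the PEG3 to ZIM2 cluster of chromosome 19 did not reach 1 TPM in any library. DLK1, a Notch-related surface protein of fetal liver, was at 0.00981 TPM in replicate 1 and at 0 in replicates 2 and 3. MEG3, the maternal long noncoding RNA of the cluster, and RTL1, a retrotransposon-derived gene, were listed at 0 in all 3. MEG8, another maternal noncoding RNA, was at 0, 0.00267 and 0.00275 TPM. From DLK1 to DIO3 the tables hold 113 rows, of which 96 are microRNA or small nucleolar RNA rows, and 106 were listed at 0 in all 3 libraries, beside 40.7% of all rows. Poly(A) libraries do not measure these short RNA classes, so the zeros of such rows say nothing of the short RNAs. At least 1 TPM in all 3 was reached by LOC105370672, DIO3OS and DIO3 at the distal end, and DIO3, a thyroid hormone deiodinase gene, had 1.38, 1.52 and 1.35 TPM. PEG3, a paternal zinc finger gene, and ZIM2, which overlaps it over 30650 bp, were listed at 0 in all 3 libraries.

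On chromosome 20, GNAS had the highest TPM of the imprinted genes. GNAS, which encodes the stimulatory G protein alpha subunit and several imprinted isoforms, had 1088, 1106 and 1108 TPM, or 1100.5 ± 11.3 TPM (SD, n = 3). Its coverage was 221, 215 and 193, which ranked sixth among the imprinted genes. The tables give 1 value for the whole locus, so its biallelic and imprinted isoforms were not told apart. BLCAP, a bladder cancer associated membrane protein gene, had 78.7, 77.4 and 78.7 TPM, or 78.3 ± 0.760 TPM. NNAT, a paternal proteolipid gene of the brain that lies within BLCAP on the other strand, had 2.28, 2.43 and 2.26 TPM, or 2.33 ± 0.0949 TPM. NNAT was below BLCAP in 3 of 3 libraries, by a mean log2 ratio of -4.58 ± 0.05 (exact sign-flip permutation p = 0.25, adjusted 0.3). L3MBTL1, a chromatin-compacting Polycomb-related gene, had 2.42, 2.75 and 2.57 TPM, or 2.58 ± 0.167 TPM.

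**Figure D3:**
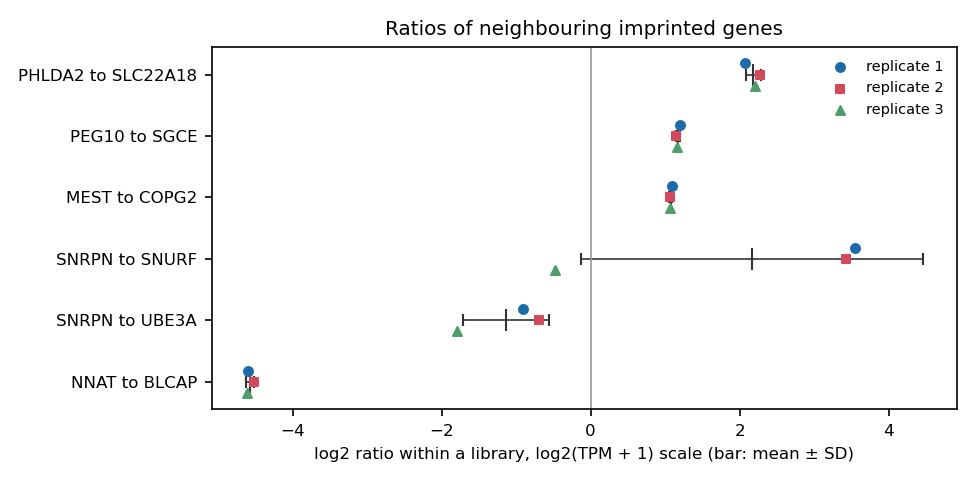
Log2 ratio of neighbouring imprinted genes within each library on the log2(TPM + 1) scale (points), with the mean and SD over 3 libraries (bars), for the 6 pairs in which the mean of both genes reached 1 TPM. The SNRPN to SNURF ratio is 3.55 and 3.43 in replicates 1 and 2 and lies below 0 in replicate 3, and the PEG10 to SGCE and MEST to COPG2 ratios vary by an SD of 0.02.

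Of the imprinted genes that stand alone, NAP1L5 differed most between libraries. NAP1L5, a paternal gene of the nucleosome assembly family, lies within HERC3, on the opposite strand, at chr4 88695913 to 88698235. It had 13.5 TPM in replicate 1, was listed at 0 in replicate 2 and had 12.5 TPM in replicate 3, with a coverage of 84.9, 0 and 68.8. HERC3, a ubiquitin ligase gene, had 4.58, 3.99 and 3.84 TPM in the same libraries. The value of NAP1L5 was therefore missing from replicate 2 alone, while its host gene was not. At least 1 TPM in at least 2 libraries was reached by 20 imprinted genes, of which NAP1L5 was the 1 listed at 0 in the other, beside 59 of 13709 rows (0.43%). By library, 0.124%, 0.131% and 0.175% of these rows were listed at 0 in replicate 1, 2 or 3 alone. FAM50B, another paternal gene that arose from a copied RNA, is on the list of further imprinted genes or genes of imprinted regions. It had 1.32 TPM in replicate 1, 0 in replicate 2 and 1.21 TPM in replicate 3.

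Apart from GNAS and GRB10, given above, the other single genes were low. INPP5F, an inositol phosphatase gene with an imprinted brain isoform, had 3.79, 4.16 and 3.66 TPM, or 3.87 ± 0.261 TPM (SD, n = 3), and overlaps MCMBP on the other strand, which had 42.8 ± 4.51 TPM. ZDBF2, a paternal zinc finger gene, had 2.75, 2.18 and 1.96 TPM, or 2.30 ± 0.405 TPM. DIRAS3, a Ras-related growth inhibitor also called ARHI, was at 0, 0.295 and 0 TPM, between GNG12 with 75.1 ± 6.01 TPM and WLS with 69.6 ± 4.06 TPM. TP73-AS1, a noncoding RNA, was listed at 0 in all 3 libraries, and TP73 on the other strand had 1.70, 1.61 and 1.80 TPM.

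**Figure D4:**
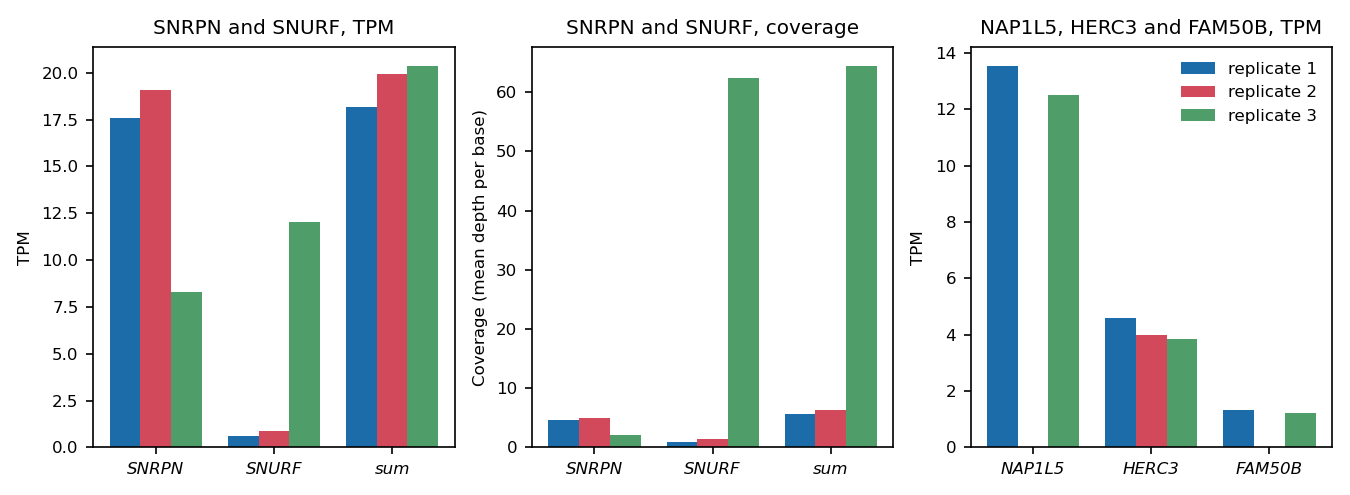
TPM of SNRPN, SNURF and their sum (left), their coverage in mean depth per base (middle), and TPM of NAP1L5, its host gene HERC3 and FAM50B (right), with 1 bar per library and no error bars. The summed TPM of SNRPN and SNURF stays between 18.1 and 20.4 while SNURF alone is at 12.0 in replicate 3, and NAP1L5 and FAM50B are at 0 in replicate 2.

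For the spread between libraries, the highest value of log2(TPM + 1) was compared with the lowest. Among the 21 imprinted genes whose mean reached 1 TPM, SNURF, NAP1L5 and SNRPN (14.3%) had a range (highest minus lowest) above 1, beside 173 of 13753 such rows (1.26%). SNURF and SNRPN are overlapping rows of the same locus, so they are not separate cases. SNURF reached a mean of 1 TPM only through replicate 3, and its mean was 0.723 TPM without that library. The value that placed SNURF among the 21 genes is thus also the one that made its range exceed 1. The ranges were 3.04, 3.86 and 1.11 in SNURF, NAP1L5 and SNRPN. Without replicate 2 or without replicate 3, the count fell from 3 to 1 (SNURF and NAP1L5, respectively). In the other 18 genes, the range was at most 0.34 and the coefficient of variation ran from 0.972% in BLCAP to 17.6% in ZDBF2. The median coefficient of variation was 5.88% over the 21 genes and 6.12% over all rows of this level. Replicate 3 was the lowest in 13 of the 18 genes, and replicate 1 was the highest in 9. These counts were not made over all rows, so they show no trait of the imprinted genes. Of the imprint upkeep genes with at least 1 TPM in every library, given below, all but SETDB1 were also lowest in replicate 3.

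Ordered by mean TPM, the 21 genes ran from GNAS, PHLDA2, H19, BLCAP and PEG10 through CDKN1C, PLAGL1, MEST, UBE3A, SLC22A18, SGCE, COPG2, SNRPN and GRB10 to NAP1L5, SNURF, INPP5F, L3MBTL1, NNAT, ZDBF2 and KLF14. The values of the first 5 did not overlap with those of their neighbours in this order. Of the 20 neighbouring pairs, 10 had overlapping values, among them CDKN1C and PLAGL1, the run from MEST to SGCE, and the run from L3MBTL1 to ZDBF2.

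The order by TPM differed from that by coverage in several genes. Coverage was divided by FPKM and by the highest such ratio of the library, so that 1 marks the largest coverage for a given FPKM. PHLDA2, PEG10 and KLF14 stood at 1.00, and H19 at 0.904. GNAS stood at 0.0319, SNRPN at 0.0435 and GRB10 at 0.0813, so the coverage of these 3 genes was low for their TPM. A value below 0.1 was thus present in 3 of 21 imprinted genes (14.3%), beside 641 of 13753 rows (4.66%), and the median was 0.604 in the imprinted genes and 0.805 in all rows.

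**Figure D5:**
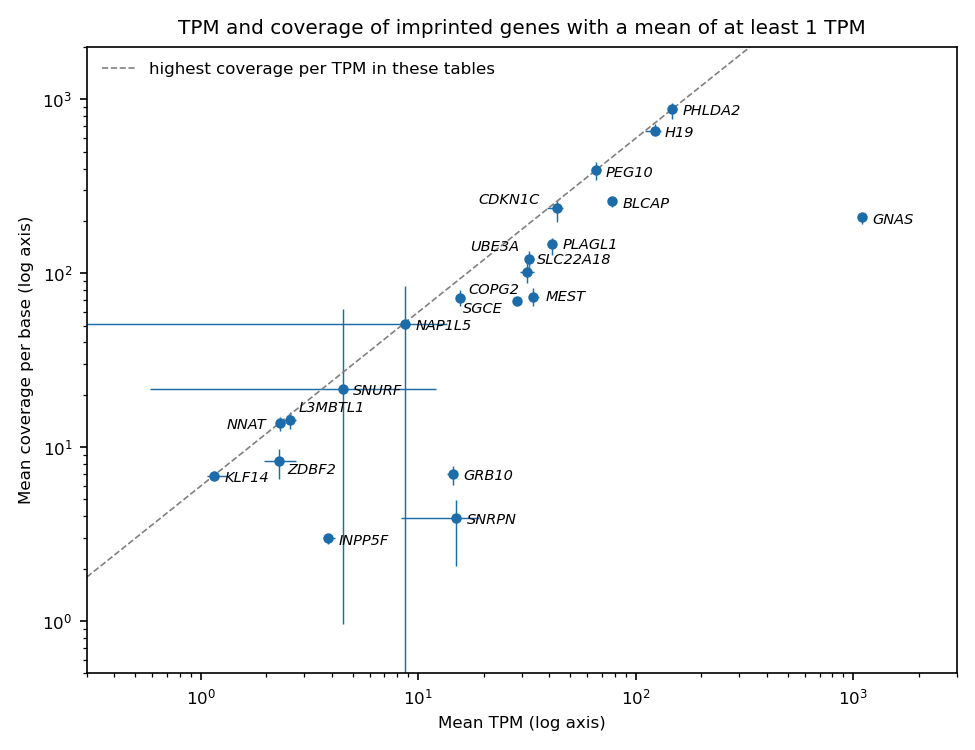
Mean coverage per base against mean TPM, both on log axes, for the 21 imprinted genes whose mean reached 1 TPM, with bars from the lowest to the highest library and a dashed line at the highest coverage per TPM in these tables. PHLDA2 and PEG10 lie on the line, and GNAS, SNRPN and GRB10 lie far below it.

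The rows next to the clusters were at the level of the background. Of the 34 nearest named rows on either side of the 17 clusters, 11 (32.4%) had at least 1 TPM in all 3 libraries, beside 33.8% of all rows. INS, PPP1R9A, DDC, MIMT1 and SGK2 among them are also on the list of further imprinted genes or genes of imprinted regions counted below. The flanking rows thus do not all lie outside imprinted regions. Both flanking rows were expressed in 3 clusters and neither in 9. A further list held 30 other imprinted genes or genes of the same imprinted regions, and 29 had a row. Of these, 11 had at least 1 TPM in every library, beside 33.8% of all rows, and 7 were listed at 0 throughout. The highest were HM13, a signal peptide peptidase gene with 214 ± 12.8 TPM, TFPI2, a protease inhibitor gene with 49.5 ± 3.84 TPM, IGF2R, and RB1, the retinoblastoma gene with 27.2 ± 3.53 TPM (SD, n = 3).

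Among 11 genes that act in the upkeep of imprints, 7 had at least 1 TPM in all 3 libraries, beside 59.5% of all protein-coding rows, so the list did not stand apart by this count. TRIM28, the corepressor that ZFP57 recruits, had 305 ± 13.6 TPM (SD, n = 3). UHRF1, which brings the maintenance methyltransferase to replicated DNA, had 87.2 ± 3.45 TPM, and DNMT1, that methyltransferase, had 79.4 ± 2.01 TPM. CTCF, the insulator protein that binds the unmethylated control region between H19 and IGF2, had 35.6 ± 1.42 TPM. SETDB1, a histone methyltransferase, had 24.8 ± 0.882 TPM, SMCHD1, a chromatin protein, had 13.2 ± 1.11 TPM, and ZNF445, a second zinc finger protein of imprint upkeep, had 7.30 ± 0.226 TPM. ZFP57 itself, DPPA3 and NLRP7 were listed at 0 in all 3 libraries, and CTCFL, a germ line relative of CTCF, was at 0.0349, 0.0171 and 0 TPM.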

How the data were processed

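Poly(A) RNA of 3 libraries labelled as wild-type HepG2 was sequenced as 150 bp paired-end reads. The submitters' processing notes name FastQC 0.11.8, Trim Galore 0.6.2, STAR 2.6.1a, StringTie and GRCh38. The annotation and the strand setting are not given in the sources used here. Coverage, as deposited, gives the average number of reads over each base of a gene without correction for library size. The FPKM deposited by the authors is scaled for gene length and library size, and the TPM deposited by the authors is scaled to 1000000 per library. No counts were used, so depth is unknown and no counting interval is given. A mitochondrial tRNA row, TRNC, took 16.9%, 17.2% and 17.1% of the TPM in replicates 1, 2 and 3, and the TPM of all other genes is lower by its share.

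Rows were joined by gene, reference, strand and coordinates (43389 rows, with 10 left out), and the 39320 rows on the main chromosome references were used. Levels were compared on the log2(TPM + 1) scale. Of 13 pairs of neighbours, the 6 in which both genes had a mean of at least 1 TPM were tested with an exact sign-flip permutation test (two-sided, 3 libraries), which cannot give a p below 0.25. No conditions could be compared. The genes named are all members of the list, further lists, and the nearest rows beside each cluster. The further lists are of imprint upkeep, other imprinted genes or genes of imprinted regions, the IGF2 pathway and cell type markers. HOTS, MRPL23, CD81, HERC3, MCMBP, TP73 and other overlapping or nearby rows were chosen after their values were seen. The members and lists were chosen with earlier results of these data known. The range calculation was tested on simulated data, and the sign-flip test and the adjustment were checked on short sets of known values. RefSeq tables of GRCh38.p14 gave promoter and microRNA sequences and gene types. The alternatives were other minimum levels, pseudocounts and scalings, FPKM or coverage in place of TPM, and leaving out each library. Python 3.11.15, numpy 2.4.6, pandas 2.3.3 and matplotlib 3.10.9 were used.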

Additional observations from a re-analysis of the deposited data

How the results depend on the processing

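Of the 35 imprinted genes, the number with at least 1 TPM in every library was 19 to 20 with each library left out, 21 at a minimum of 0.1 TPM, 13 at 10 TPM, 17 by FPKM and 19 under rescaling without mitochondrially encoded genes, by median-of-ratios or with TRNC recomputed, the last chosen after seeing the data. The number listed at 0 was 7 to 9 with a library left out and 12 when TPM below 0.1 in all 3 was counted as 0, because MKRN3, IGF2, KCNQ1OT1, DLK1 and MEG8 then join. The number with a range of log2(TPM + 1) above 1 was 1 at a minimum mean of 10 TPM, which only SNRPN of the 3 genes passes, and 1 to 3 with a library left out (1 without replicate 2 and 1 without replicate 3). The log2 ratio of SNRPN to SNURF turned from 2.17 to -0.50 by coverage, and the cause was not tested. With a library left out it was 1.47 to 3.49, and the ratio of SNRPN to UBE3A was -1.35 to -0.80. The level of NAP1L5 was 13.0 TPM without replicate 2. The other ratios kept their sign under a pseudocount of 0.1, FPKM and coverage, by which PHLDA2 to SLC22A18 was 3.10, PEG10 to SGCE 2.47, MEST to COPG2 0.02 and SNRPN to UBE3A -4.69. Rescaling without mitochondrially encoded genes multiplied the levels by 1.25, TRNC recomputed by 1.20, and median-of-ratios by 0.994 to 1.02. The motif was in 16 of 49 windows when the 250 bases before the start were searched, beside 12.7% of all windows. The sum of SNRPN and SNURF, by TPM and by coverage, was also added after seeing the data. No paired analysis was possible because only 1 group of libraries exists here. The sign-flip test over 3 libraries could not reach a p below 0.25, and values near 0 TPM have no stated depth behind them.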
